A study of Homo sapiens with 6 samples.

Results

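The genes described here are 36 members of the hypoxia response: subunits of the hypoxia-inducible factors (HIFs), the oxygen sensors that control them, and HIF target genes that lie outside glycolysis. They were taken by symbol from the 60605 genes of the deposited table, and each of the 36 symbols matched 1 row. The comparison was between SW620 cells with a stably integrated lentiviral ELAPOR1 construct (pLVX-IRES-Puro-ELAPOR1) and SW620 cells with the empty pLVX-IRES-Puro vector, with 3 poly(A) RNA libraries in each group. SW620 is an established human colorectal cancer line, and ELAPOR1 is a transmembrane protein of endosomes and lysosomes. Both groups were infected with lentivirus and selected with puromycin. No other treatment is given, so no library is described as coming from cells placed in low oxygen. The labels do not say whether a selected population was 1 clone or whether libraries came from separate cultures. A p-value here weighs a difference against the scatter of these 6 libraries alone, part of which could be technical. The main test, by edgeR, pools that scatter partly over genes, so its SE can lie below the scatter of 1 gene's own libraries.

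HIFs are transcription factors made of an oxygen-sensitive alpha subunit and a stable beta subunit. With oxygen present, the prolyl hydroxylases encoded by EGLN genes mark the alpha subunit, the VHL ubiquitin ligase binds the mark and the protein is degraded, while the asparagine hydroxylase encoded by HIF1AN blocks coactivator binding. When the alpha subunit escapes, the dimer binds a short DNA core near its targets, which serve pH control, blood supply, collagen processing, mitochondrial turnover and chromatin. Much of HIF alpha control acts on the protein, which RNA counts do not measure.

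Total counts per library lay between 16457436 and 19268166 in ELAPOR1 cells and between 16401813 and 20571924 in vector cells. ELAPOR1 itself stood at 21494, 21112 and 20771.5 CPM (read counts scaled to library size with edgeR's TMM factors) in ELAPOR1 cells, against 11.5, 11.0 and 8.73 CPM in vector cells, so each library matched its label. The 8 epithelial markers were EPCAM, KRT8, KRT18, KRT19, CDH1, CDX2, VIL1 and CDH17. Together they gave 7853 to 7866 CPM in ELAPOR1 cells and 8435 to 8830 CPM in vector cells. They mark colon epithelium and do not identify SW620 among colorectal lines. At an adjusted p under 0.05 by edgeR, 1 was higher and 4 lower in ELAPOR1 cells, against 10.0% and 11.4% of all genes tested. The 6 fibroblast markers summed to 24.9 to 30.1 CPM in ELAPOR1 cells and 17.4 to 18.8 CPM in vector cells. Of the 3 tested, 1 was higher, against the same 10.0% of all genes tested. The 5 immune markers summed to at most 7.81 CPM in any library (MS4A1 at 0 throughout), the 3 endothelial ones to at most 2.81 CPM (CDH5 at 0) and 4 markers of the packaging line HEK293T to at most 0.581 CPM (NEFM at 0). The part of these marker differences in the results was not tested.

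Hypoxia targets were mostly lower in ELAPOR1 cells. Of the 36 members, 33 had enough counts to test. Of these, 19 fell and 1 rose at an adjusted p under 0.05 by edgeR's quasi-likelihood test, and 13 did not pass. Among all 16003 genes tested, 21.4% passed in either direction, 11.4% lower and 10.0% higher, the shares to set beside the counts by role below. The median log2 fold change, ELAPOR1 over vector, was -0.26 over the 33 members and 0.00407 over all genes. The ELAPOR1 libraries lay all below the vector libraries for 19 members and all above them for 3, where over all genes tested the groups were separate in this way for 17.4% and 16.4%. A fall of at least 1 on the log2 scale was called for 5 members, NDRG1, PPFIA4, MIR210HG, ADM and PLOD2, and for 0.756% of all genes tested. In such bulk libraries fewer expressing cells and less RNA per cell cannot be told apart. At an unadjusted p under 0.05, edgeR had 21 members lower and 3 higher, against 16.3% and 15.5% of all genes tested.

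The count of members that fell stayed between 16 and 19 in every alternative run except 1 limma fit. DESeq2 called 17 lower and 0 higher, against 8.95% of genes lower. With limma on FPKM (a level per exon length) and a filter on low values, 28 members were tested. Of these, 17 were lower on log2(FPKM + 1) and 17 on log2(FPKM + 0.1), against 9.42% and 9.28% of genes. With no such filter, 9 members were lower on log2(FPKM + 1), against 3.04% of genes lower and 4.52% in either direction. With edgeR and no filter 19 were lower against 5.58% of genes, and at an adjusted p under 0.01 17 were lower against 7.69%. Without ELAPOR1 replicates 1, 2 and 3 in turn, 18, 17 and 19 members were lower, against 9.31%, 9.05% and 8.92% of genes. Without vector replicates 1, 2 and 3 in turn, 19, 19 and 16 were lower, against 10.6%, 9.17% and 8.82% of genes.

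**Figure D1:**
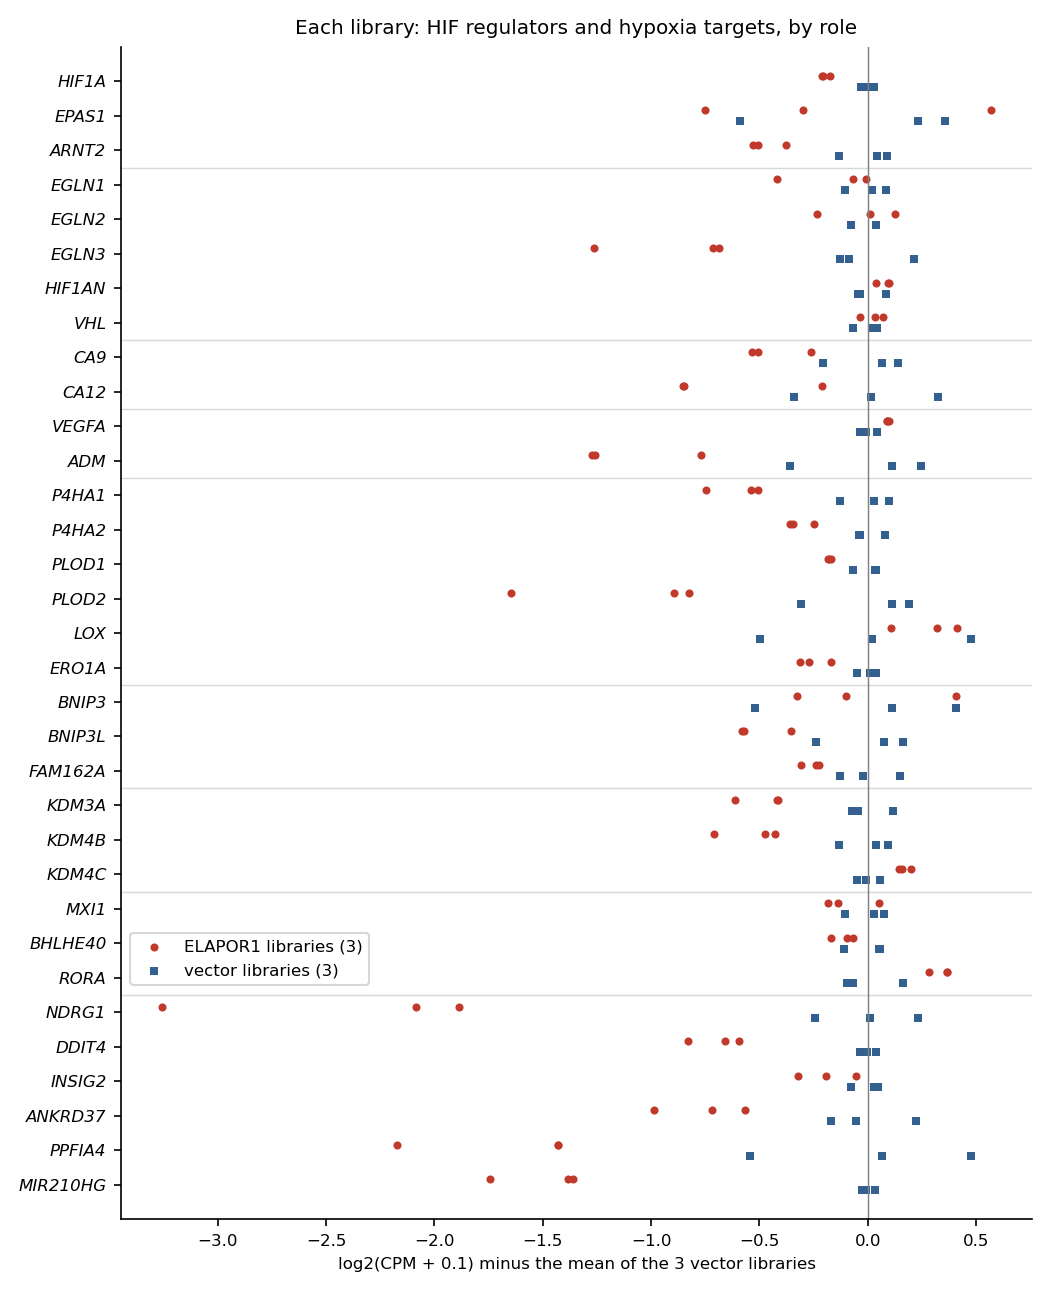
Every library of the 33 members tested, as log2(CPM + 0.1) minus the mean of the 3 vector libraries, with ELAPOR1 libraries as circles above vector libraries as squares and grey lines between roles. NDRG1, PPFIA4 and MIR210HG lie farthest to the left in ELAPOR1 cells, while HIF1A shows small, tightly grouped differences.

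**Figure D2:**
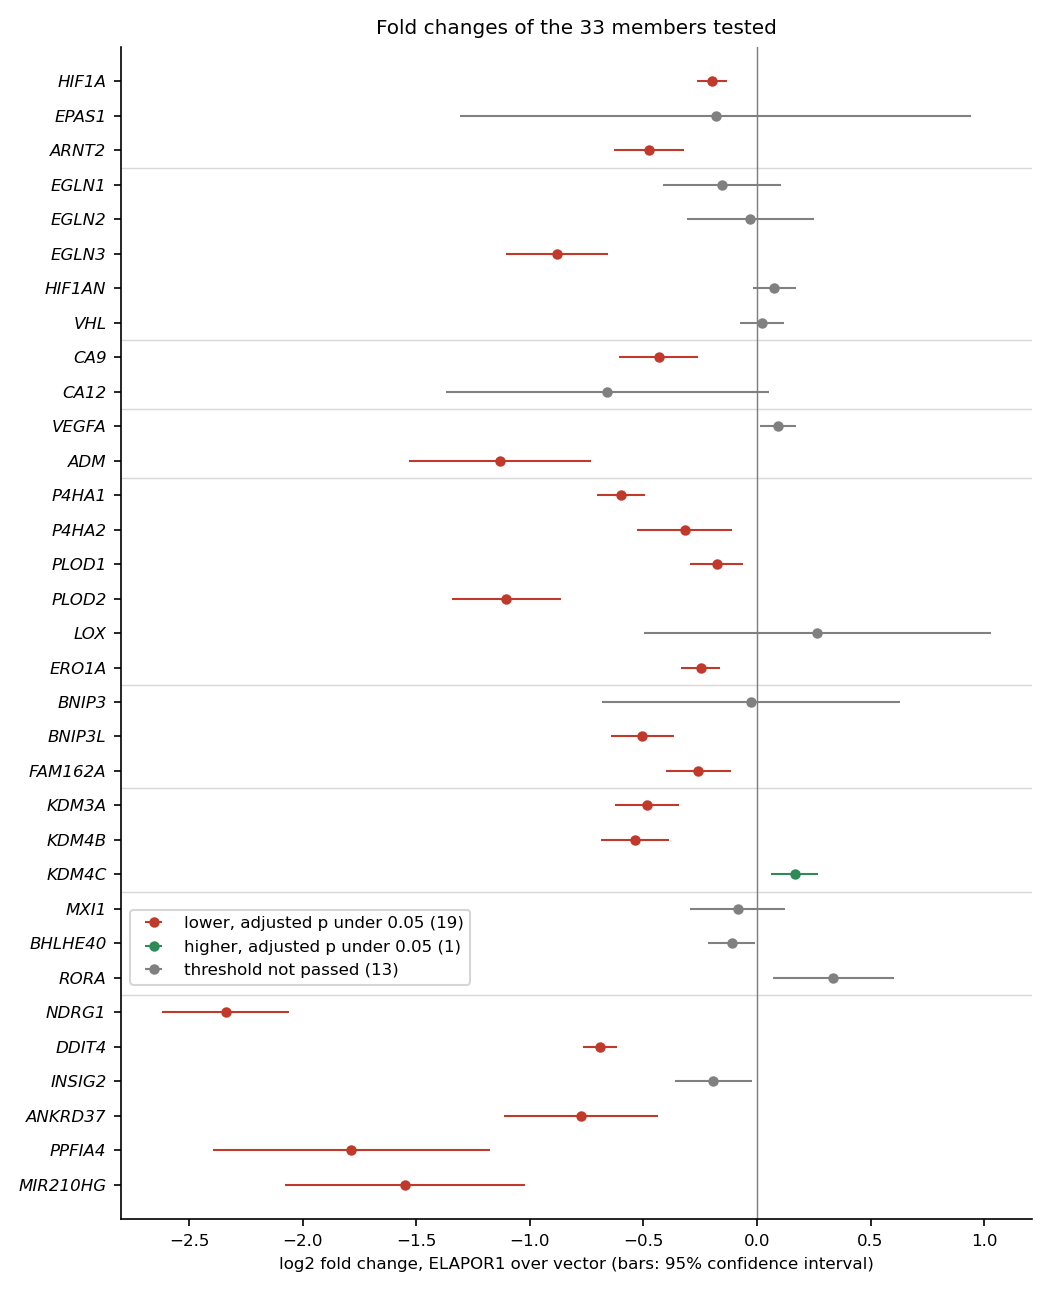
Log2 fold change of ELAPOR1 over vector for the same 33 members with its 95% confidence interval, in the order of roles. The 19 members that fell span -2.34 to -0.18, KDM4C is the 1 that rose, and the 13 others include regulators such as VHL, HIF1AN and EGLN2 with values near 0.

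Of the HIF subunits, HIF1A was the only alpha subunit with an appreciable level. HIF1A (chromosome 14, 61695513 to 61748259, plus strand, in the files' GRCh38 coordinates) gave 286, 285 and 294 CPM in ELAPOR1 cells, against 332, 337 and 323 CPM in vector cells. The groups were separate but close, and HIF1A was lower by a log2 fold change of -0.20 (standard error, SE, 0.032; adjusted p 1.34e-06). EPAS1, which encodes the alpha subunit HIF-2 alpha, had 13, 5 and 7 counts in ELAPOR1 cells and 12, 14 and 5 counts in vector cells. Its log2 fold change of -0.18 had a 95% interval from -1.31 to 0.94, so no change of this gene was detectable at this depth. HIF3A, the gene of another alpha subunit with mostly inhibitory forms, had 0, 0 and 2 counts in ELAPOR1 cells and 0, 0 and 1 in vector cells and was not tested. A count of 0 allows up to 0.183 CPM in the shallowest library, taking 3 counts as the limit, which covers counting error only.

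ARNT2, a partner subunit that dimerizes with alpha subunits, had 29.2, 26.3 and 26.7 CPM in ELAPOR1 cells, against 40.4, 34.7 and 39.2 CPM in vector cells. All ELAPOR1 libraries were below all vector libraries, with a log2 fold change of -0.48 (SE 0.077) at an adjusted p of 1.21e-06. In all, 2 of the 3 subunits tested fell.

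Among the 4 oxygen sensors and VHL, EGLN3 was the 1 that fell. EGLN3, a prolyl hydroxylase gene that is itself a HIF target, gave 13.5, 9.03 and 13.3 CPM in ELAPOR1 cells, against 20.6, 20.0 and 25.3 CPM in vector cells. It was 1.84-fold lower, with a log2 fold change of -0.88 (SE 0.11) at an adjusted p of 2.40e-09, and ELAPOR1 replicate 2 was the lowest of the 6. EGLN1, the main prolyl hydroxylase for HIF1A in many cells, had 7.87, 10.1 and 10.5 CPM in ELAPOR1 cells and 11.2, 10.7 and 9.82 CPM in vector cells, overlapping groups with a log2 fold change of -0.15 (95% interval -0.42 to 0.11). EGLN2 was at -0.03 (interval -0.31 to 0.25), HIF1AN at 0.08 (-0.02 to 0.17) and VHL at 0.02 (-0.07 to 0.12), with adjusted p of 0.920, 0.274 and 0.810. EGLN2 shares 2012 of its 6577 exonic bases with the same-strand read-through gene RAB4B-EGLN2, which had 4 counts against 943, so reads of the pair may not be fully separable.

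To set EGLN3 against its relatives within each library, the log2 ratio of CPM was compared between groups for 5 pairs of members chosen after their values were seen. The ratio of EGLN3 to EGLN1 averaged 0.32 ± 0.47 in ELAPOR1 cells and 1.05 ± 0.28 in vector cells (SD, n = 3 each), and that of EGLN3 to EGLN2 averaged 0.47 ± 0.16 in ELAPOR1 cells and 1.33 ± 0.17 in vector cells. The groups did not overlap for either ratio, and the two-sided exact permutation p was 0.1 for each of the 5 pairs, unchanged by adjustment over the 5 and the smallest that 3 against 3 libraries allow.

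The largest falls were in a set of targets with unlike functions. NDRG1 encodes a stress-responsive protein of differentiation and vesicle traffic that is a classic hypoxia marker (chromosome 8, 133237175 to 133302022, minus strand). It gave 6.83, 2.98 and 7.86 CPM in ELAPOR1 cells, against 29.5, 24.7 and 34.4 CPM in vector cells. The groups were far apart and ELAPOR1 replicate 2 was the lowest by a wide margin. The gene was 5.06-fold lower, with a log2 fold change of -2.34 (SE 0.14) at an adjusted p of 2.64e-23 by edgeR. In the authors' deposited comparison, for which their notes name DESeq2, its SE was 0.42 and its adjusted p 5.47e-07. Without ELAPOR1 replicate 2 the log2 fold change by edgeR was -2.0.

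PPFIA4, a liprin family scaffold gene, had 1.29, 0.731 and 1.29 CPM in ELAPOR1 cells, against 5.11, 2.47 and 3.82 CPM in vector cells. It was 3.45-fold lower, with an adjusted p of 3.72e-06, on 14 to 23 counts per ELAPOR1 library and 51 to 100 per vector library. DDIT4, which encodes the mTORC1 inhibitor REDD1, had 213, 190 and 223 CPM in ELAPOR1 cells, against 336, 329 and 346 CPM in vector cells. It was 1.62-fold lower with an adjusted p of 1.07e-25, a smaller change than those of NDRG1 and PPFIA4 in a far more abundant RNA. DDIT4 is also induced by other stresses than hypoxia.

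ANKRD37, an ankyrin repeat protein gene, gave 4.74, 3.92 and 5.27 CPM in ELAPOR1 cells and 7.56, 9.20 and 6.97 CPM in vector cells, a log2 fold change of -0.78 (SE 0.17) at an adjusted p of 2.87e-04. Its GENCODE 29 exons share 909 of 2580 bases with UFSP2 on the other strand, which had 3413 counts against 699 and a log2 fold change of -0.09, so its reads may not be fully separable. INSIG2, which retains the sterol sensor SCAP in the endoplasmic reticulum, had a log2 fold change of -0.19 (95% interval -0.36 to -0.02) at an adjusted p of 0.10, and passed without ELAPOR1 replicate 1 at 0.0433.

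MIR210HG is the long noncoding host transcript of the microRNA most regularly induced by hypoxia (chromosome 11, 565660 to 568457, minus strand). It had 1.60, 1.2 and 1.57 CPM in ELAPOR1 cells, against 4.24, 4.36 and 4.18 CPM in vector cells, and so was 2.93-fold lower with a log2 fold change of -1.55 (SE 0.26) at an adjusted p of 3.29e-06. The vector libraries agreed closely, on 69 to 90 counts each. The MIR210 row inside its span, with no exon shared, had 0, 3 and 2 counts in ELAPOR1 cells and 0, 0 and 1 counts in vector cells; libraries of this kind do not capture mature microRNAs, whose level was not measured. The mature strands that the locus encodes are shown because they are what a change of this host gene would concern, with the seed, bases 2 to 8, in capitals (RefSeq, GRCh38.p14).
hsa-miR-210-3p: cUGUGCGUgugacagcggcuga
hsa-miR-210-5p: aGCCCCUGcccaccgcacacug

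Among genes of pH control and of secreted factors, CA9 and ADM passed, and the others did not pass or were not tested. CA9, a membrane carbonic anhydrase of pH control that is widely used as a hypoxia marker, gave 21.8, 22.1 and 26.3 CPM in ELAPOR1 cells, against 33, 27.3 and 34.7 CPM in vector cells. The groups were separate by a small gap, with a log2 fold change of -0.43 (SE 0.087) at an adjusted p of 8.21e-05. CA9 exons share 643 of 1670 bases with ARHGEF39 on the other strand, which had 2849 counts against 3030 and a log2 fold change of 0.03. CA12, a second membrane carbonic anhydrase, had 17 to 30 counts per ELAPOR1 library and 30 to 41 per vector library. Its CPM values overlapped, and its log2 fold change was -0.66 (95% interval -1.37 to 0.05), an interval that holds the change of CA9.

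ADM, which encodes the vasodilator peptide adrenomedullin, had 3.81, 2.66 and 2.69 CPM in ELAPOR1 cells, against 5.11, 7.12 and 7.82 CPM in vector cells. It was 2.19-fold lower with an adjusted p of 7.50e-06. VEGFA, the main angiogenic growth factor gene, gave 153, 152 and 152 CPM in ELAPOR1 cells, against 147, 142 and 139 CPM in vector cells. Every ELAPOR1 library was above every vector library, yet the log2 fold change was 0.09 (95% interval 0.01 to 0.17) with an adjusted p of 0.0898, which became 0.0474 without vector replicate 1. The log2 ratio of ADM to VEGFA averaged -5.66 ± 0.29 in ELAPOR1 cells and -4.44 ± 0.36 in vector cells (SD, n = 3 each). With ADM lower and VEGFA higher in every ELAPOR1 library than in any vector library, the lack of overlap of this ratio was fixed in advance.

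The remaining 2 secreted factors were close to absent. ANGPTL4, an inhibitor of lipoprotein lipase, had 0, 6 and 1 counts in ELAPOR1 cells and 3, 11 and 6 counts in vector cells. STC1, the gene of the glycoprotein stanniocalcin, had 0 counts in each ELAPOR1 library and 0, 0 and 2 counts in vector cells. Neither passed the count filter.

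Enzymes of collagen maturation and disulfide formation were lower in 5 of 6 cases. PLOD2, the lysyl hydroxylase of collagen telopeptides, gave 13.5, 7.99 and 14.2 CPM in ELAPOR1 cells, against 27.3, 20.4 and 28.9 CPM in vector cells. It was 2.15-fold lower, with a log2 fold change of -1.10 (SE 0.12) at an adjusted p of 9.30e-12 by edgeR, and replicate 2 was the lowest library of both groups. DESeq2 gave PLOD2 an SE of 0.29 and an adjusted p of 0.00219. P4HA1, the catalytic subunit of collagen prolyl hydroxylase, gave 76.0, 66.0 and 77.8 CPM in ELAPOR1 cells, against 113, 101 and 118 CPM in vector cells, a 1.51-fold lower level with an adjusted p of 2.70e-15. ERO1A, the endoplasmic reticulum oxidase that drives disulfide formation, had 111, 114 and 122 CPM in ELAPOR1 cells and 139, 133 and 141 CPM in vector cells, with a log2 fold change of -0.25 at an adjusted p of 4.87e-06.

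The other 3 of these enzymes had less stable calls or none. P4HA2 and PLOD1, a second prolyl and a second lysyl hydroxylase gene, fell by 0.32 and 0.18 on the log2 scale with adjusted p of 0.0202 and 0.0213. The P4HA2 call was lost with DESeq2 (0.0733), without ELAPOR1 replicate 1 (0.0629), without ELAPOR1 replicate 2 (0.0679) and without vector replicate 3 (0.0908). It was also lost in the limma fits on log2(FPKM + 1) (0.104), on log2(FPKM + 0.1) (0.0978) and with no filter (0.273). That of PLOD1 was lost with DESeq2 (0.0677), without ELAPOR1 replicate 1 (0.0582) or 2 (0.0631) and without vector replicate 2 (0.0966) or 3 (0.0849). LOX, the collagen cross-linking oxidase gene, had only 21 to 31 counts per ELAPOR1 library and 16 to 28 per vector library, and its log2 fold change of 0.26 had an interval from -0.50 to 1.03.

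Of the 3 genes of mitochondrial proteins, BNIP3L and FAM162A fell and BNIP3 was low in both groups. BNIP3L, a mitophagy receptor also called NIX, gave 38.7, 39.0 and 45.4 CPM in ELAPOR1 cells, against 61.2, 49.1 and 64.9 CPM in vector cells, a log2 fold change of -0.50 (SE 0.070) at an adjusted p of 2.27e-08. FAM162A, a mitochondrial membrane protein gene, had a log2 fold change of -0.26 (SE 0.071) at an adjusted p of 0.00460, a call lost without vector replicate 3 (0.101) and in the limma fit with no filter (0.120). BNIP3, the close relative of BNIP3L, had 1.66, 2.40 and 1.40 CPM in ELAPOR1 cells and 2.40, 1.94 and 1.21 CPM in vector cells. These overlap, and the log2 fold change of -0.03 had an interval from -0.68 to 0.63, wide enough to hold a change as large as that of BNIP3L.

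The 3 histone demethylase genes split. KDM3A, which removes methyl groups from lysine 9 of histone H3, had 35.1, 30.7 and 35.2 CPM in ELAPOR1 cells, against 50.9, 44.6 and 45.5 CPM in vector cells, with a log2 fold change of -0.49 at an adjusted p of 7.61e-08. KDM4B gave 31.0, 26.3 and 32.1 CPM in ELAPOR1 cells, against 44.3, 39.4 and 46.0 CPM in vector cells, with a log2 fold change of -0.54 at an adjusted p of 3.36e-08. KDM4C, a relative of KDM4B, gave 77.6, 74.6 and 75.3 CPM in ELAPOR1 cells, against 70.3, 67.1 and 65.3 CPM in vector cells, and was higher by 0.17 (SE 0.052) with an adjusted p of 0.0144. Its exons share 135 of 10323 bases with the same-strand long noncoding RNA gene ENSG00000225489, which had 858 counts against 7871 and a log2 fold change of 0.36 (adjusted p 0.0765). This call was lost with DESeq2 (0.0517), with limma on FPKM, without ELAPOR1 replicate 1 (0.0778) and without vector replicate 2 (0.0502) or 3 (0.0901). The log2 ratio of KDM4B to KDM4C averaged -1.35 ± 0.14 in ELAPOR1 cells and -0.65 ± 0.13 in vector cells, and that of KDM3A to KDM4C -1.18 ± 0.095 in ELAPOR1 cells and -0.52 ± 0.062 in vector cells (SD, n = 3 each). KDM4B and KDM3A were each all lower and KDM4C all higher in ELAPOR1 libraries, so the lack of overlap of these ratios was fixed in advance.

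None of the 3 transcription factor genes passed by edgeR, with 1 lower and 1 higher at an unadjusted p under 0.05 (16.3% and 15.5% of all genes tested) and 0 called by DESeq2. BHLHE40, a circadian and stress repressor gene, had a log2 fold change of -0.11 (95% interval -0.21 to -0.01) at an adjusted p of 0.124, and passed without vector replicate 2 (0.0284). MXI1, an antagonist of MYC, was at -0.09 with overlapping groups. RORA, a nuclear receptor gene, gave 9.96, 10.5 and 10.5 CPM in ELAPOR1 cells, against 9.14, 7.80 and 7.64 CPM in vector cells, all higher, with a log2 fold change of 0.34 (interval 0.07 to 0.60) at an adjusted p of 0.0618, which became 0.0352 without vector replicate 1.

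To compare levels between genes, the authors' FPKM values were used, which are counts divided by exon length and by the library total. By mean FPKM in vector cells the members ran over several orders of magnitude. DDIT4 led, at 97.6 ± 7.92 FPKM in ELAPOR1 cells and 160 ± 4.20 FPKM in vector cells, followed by HIF1A at 55.5 ± 0.862 FPKM in ELAPOR1 cells and 64.6 ± 1.34 FPKM in vector cells and P4HA1 at 23.5 ± 1.99 FPKM in ELAPOR1 cells and 36.1 ± 2.89 FPKM in vector cells (SD, n = 3 each). BHLHE40, CA9, VHL and ERO1A came next, between 18.3 and 23.6 FPKM in vector cells, where CA9, VHL and ERO1A were within about 1 SD of each other. Of the 27 members with at least 1 FPKM in vector cells, 18 fell. Of the 9 below that level PPFIA4 alone was called. The share of all genes called at each level was not computed, so these 2 counts give no comparison with genes of similar level. RORA, whose exons are long, had 126 to 202 counts per library, and the other 8 had at most 100. The most abundant member and the second both fell, while 6 of the 9 lowest, CA12, LOX, ANGPTL4, EPAS1, STC1 and HIF3A, had vector means of at most 0.287 FPKM.

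**Figure D3:**
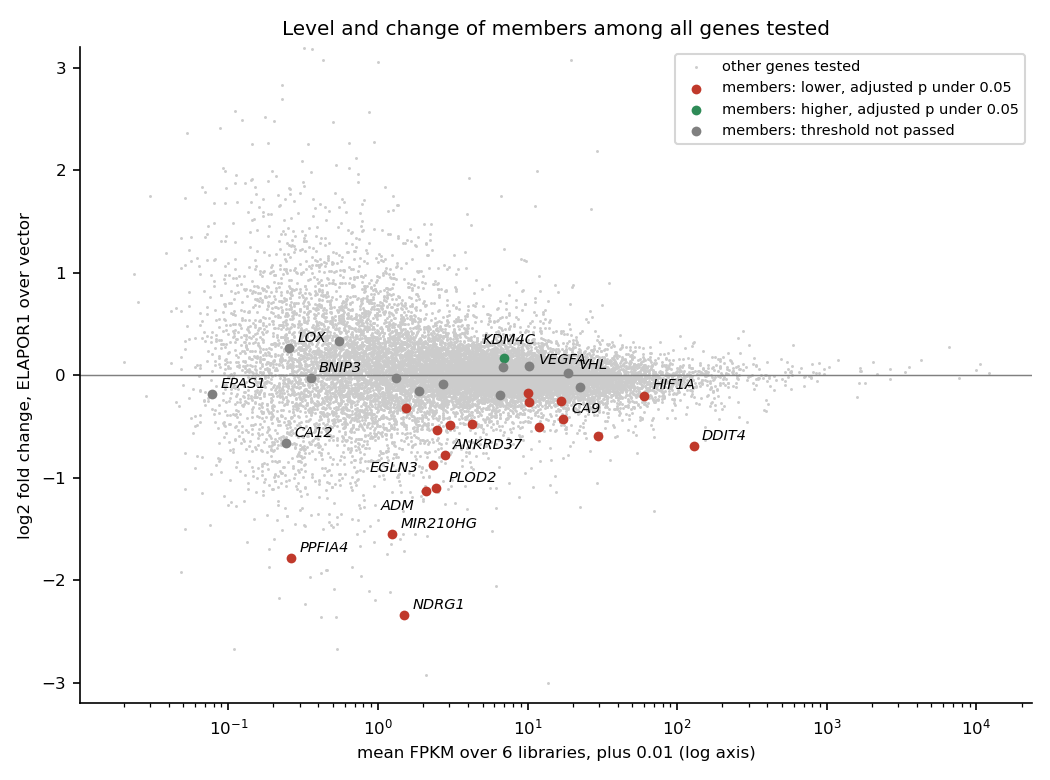
Mean FPKM over the 6 libraries (log axis, plus 0.01) against the log2 fold change of ELAPOR1 over vector for all genes tested in pale grey, with members coloured by call. Most members above 1 FPKM lie below 0, with NDRG1 lowest at -2.34, while VHL, VEGFA, HIF1AN and KDM4C lie above 0. ELAPOR1 and genes beyond the vertical axis are not drawn.

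The DNA near the members' starts was searched for the HIF core, ACGTG or GCGTG on either strand, in RefSeq windows of 300 bases that run from 250 before to 50 after a start. Overlapping matches counted as 1 site, so the symmetrical E-box CACGTG, which other factors also bind, is 1 site. Windows were matched for 30 of the 36 members, and not for ARNT2, VHL, VEGFA, STC1, BNIP3L and NDRG1. A core was present in 25 of the 30 windows (83.3%), against 48.4% of all 27305 windows and 62.6% of the 10894 windows of genes tested. At least 3 sites were present in 10 members' windows (33.3%), against 7.60% of all windows and 11.7% of windows of genes tested. Members that fell had a core in 14 of 16 windows, against 66.6% of the windows of all genes that fell. Tested members that did not fall had a core in 9 of 12, and the share for all genes that did not fall was not computed. Members were chosen as genes of the hypoxia response, and the part of this choice in these shares was not tested. The E-box was present in 3 of the 16 and 4 of the 12, against 10.1% of windows of genes tested. BNIP3 held the most sites, 5, and did not pass the test, and EGLN3, which fell, held none in this window.

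The windows below belong to the called members with the most core sites (ties taken by size of change, which leaves out KDM4C with 3), and are shown because they let a reader see the letters behind these counts; EGLN3, P4HA2 and others that fell have few or none. Each is given in the direction of its gene, in lower case with the core sites in capitals (RefSeq, GRCh38.p14). FAM162A lies on the plus strand at chr3:122383932-122384231, DDIT4 on the plus strand at chr10:72273674-72273973, PLOD2 on the minus strand at chr3:146161135-146161434, KDM4B on the plus strand at chr19:4968863-4969162 and ERO1A on the minus strand at chr14:52695509-52695808.
FAM162A: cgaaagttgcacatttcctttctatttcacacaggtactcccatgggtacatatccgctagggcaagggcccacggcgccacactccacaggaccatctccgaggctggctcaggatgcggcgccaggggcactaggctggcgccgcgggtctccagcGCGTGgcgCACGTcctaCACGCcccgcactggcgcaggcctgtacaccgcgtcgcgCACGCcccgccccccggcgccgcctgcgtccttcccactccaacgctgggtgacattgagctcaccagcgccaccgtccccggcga
DDIT4: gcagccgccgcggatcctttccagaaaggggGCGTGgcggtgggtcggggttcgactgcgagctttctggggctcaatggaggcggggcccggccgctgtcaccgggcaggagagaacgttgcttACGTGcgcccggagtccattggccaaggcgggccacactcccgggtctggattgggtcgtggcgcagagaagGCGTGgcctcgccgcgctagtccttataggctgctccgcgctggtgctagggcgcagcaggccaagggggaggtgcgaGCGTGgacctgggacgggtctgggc
PLOD2: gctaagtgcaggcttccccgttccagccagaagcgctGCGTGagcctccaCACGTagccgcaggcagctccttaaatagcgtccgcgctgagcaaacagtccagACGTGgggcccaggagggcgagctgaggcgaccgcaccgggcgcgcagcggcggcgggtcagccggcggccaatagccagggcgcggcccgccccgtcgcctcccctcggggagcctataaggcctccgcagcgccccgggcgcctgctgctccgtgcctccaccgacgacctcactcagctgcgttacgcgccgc
KDM4B: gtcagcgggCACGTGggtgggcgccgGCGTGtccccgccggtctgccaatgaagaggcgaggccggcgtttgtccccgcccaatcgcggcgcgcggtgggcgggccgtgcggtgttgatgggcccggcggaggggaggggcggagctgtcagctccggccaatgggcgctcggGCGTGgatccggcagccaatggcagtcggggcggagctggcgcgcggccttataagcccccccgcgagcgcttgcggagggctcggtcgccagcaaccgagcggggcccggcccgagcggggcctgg
ERO1A: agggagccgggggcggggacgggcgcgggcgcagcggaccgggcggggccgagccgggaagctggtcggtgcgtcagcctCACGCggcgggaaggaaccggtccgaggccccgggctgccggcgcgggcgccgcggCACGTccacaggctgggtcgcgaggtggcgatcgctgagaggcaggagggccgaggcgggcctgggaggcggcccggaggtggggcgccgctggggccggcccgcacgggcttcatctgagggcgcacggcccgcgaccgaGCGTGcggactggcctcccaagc
Counted from the start, FAM162A carried 4 sites between positions -92 and -32, DDIT4 4 sites between -219 and 29, and PLOD2 3 sites between -213 and -142, so the placing differed from gene to gene. A match is a description of the letters and not evidence of binding.

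**Figure D4:**
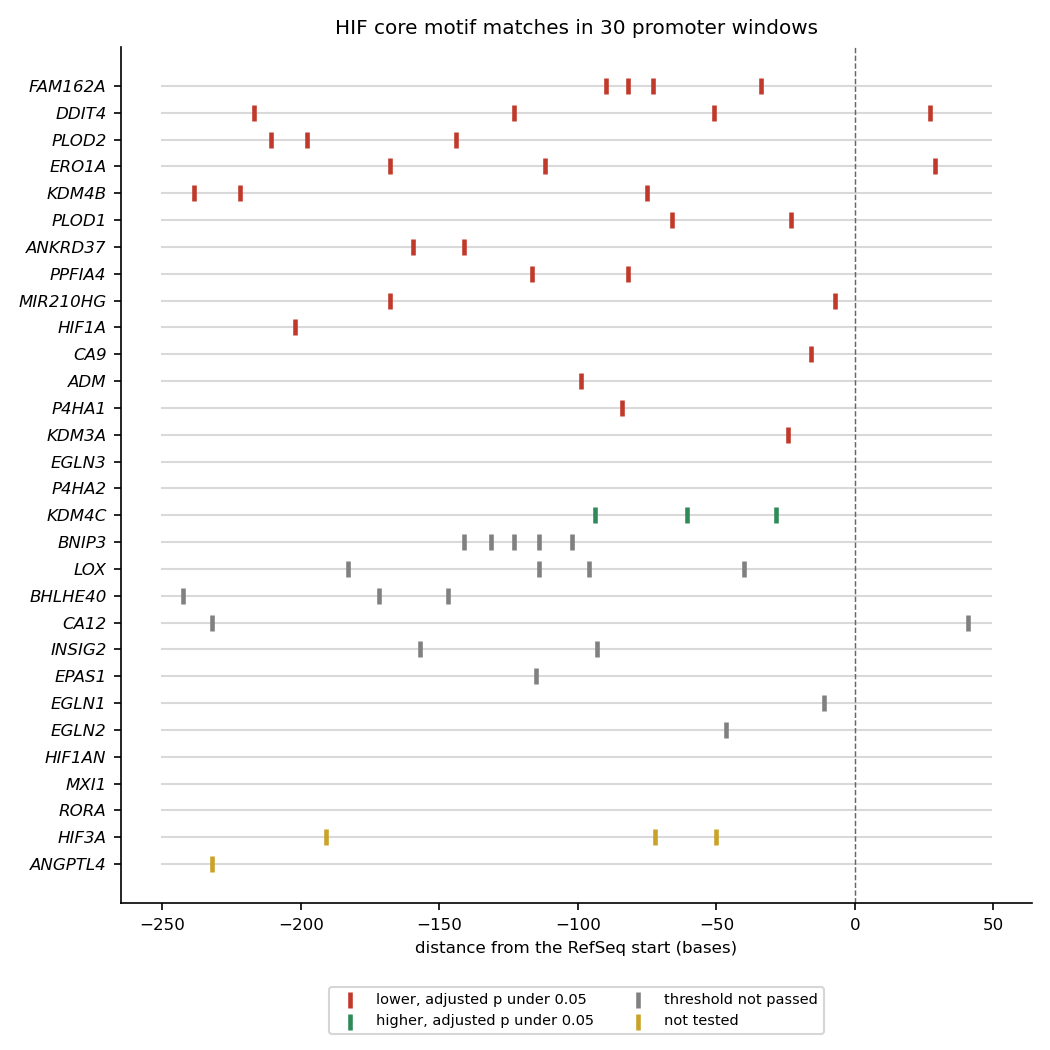
HIF core sites (ticks) by distance from the RefSeq start in the 30 windows, grouped by call from members that fell at the top to untested members at the bottom. Sites occur in windows of members that fell and of members that did not, with 5 in that of BNIP3 and none in that of EGLN3.

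Within each group, the members that fell also varied together between libraries. For 14 of the 19, ELAPOR1 replicate 2 was the lowest of the 3 ELAPOR1 libraries, and for 13 of the 19 vector replicate 2 was the lowest of the 3 vector libraries. Over all genes tested these libraries were lowest for 33.8% and 32.5% of genes. The median deviation of the 19 members from their group mean was -0.14 on the log2 scale in ELAPOR1 replicate 2 and -0.13 in vector replicate 2, while replicate 3 stood at 0.10 in ELAPOR1 cells and 0.08 in vector cells. The deviations farthest below the mean were those of NDRG1 at -0.85 and PLOD2 at -0.52 in ELAPOR1 replicate 2 and of PPFIA4 at -0.54 in vector replicate 2, and HIF1A deviated by no more than 0.03 in any library. Replicate 2 was the deepest library of both groups, and the part of depth was not tested. The labels do not say what libraries with the same number share, and over all genes tested their deviations correlated at -0.02, -0.03 and -0.02.

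Against the vector mean, the median of the 19 members was -0.54, -0.71 and -0.51 in ELAPOR1 replicates 1 to 3 and 0.01, -0.13 and 0.08 in the vector replicates, a difference that their choice by this same contrast fixes.

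**Figure D5:**
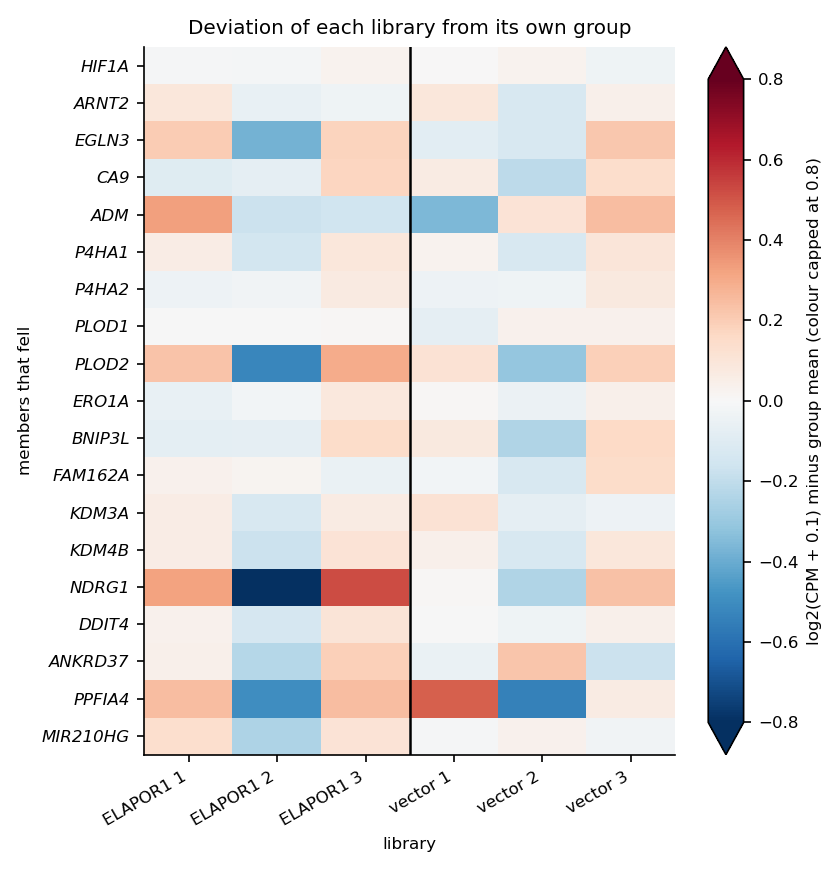
Deviation of each library (columns) from the mean of its own group for the 19 members that fell (rows), as log2(CPM + 0.1), with blue below and red above the group mean. The columns of ELAPOR1 replicate 2 and vector replicate 2 are mostly blue, deepest for NDRG1 in ELAPOR1 replicate 2, while the row of HIF1A is nearly white.

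In the authors' deposited table, 19 members were lower and 1 higher at an adjusted p under 0.05, against 10.4% of its genes lower and 19.1% in either direction. The 3 members without an adjusted p there were HIF3A, ANGPTL4 and STC1. P4HA2 (0.0215), PLOD1 (0.0179) and KDM4C (0.0123) were called there but not in the DESeq2 run made here, and the cause of this difference was not tested. The log2 fold changes of the tested members in the authors' deposited table differed from the edgeR values by at most 0.0173. The SE differed more. For EGLN3 it was 0.21 there against 0.11 by edgeR, and for DDIT4 0.072 against 0.037, while for HIF1A it was 0.030 against 0.032.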

How the data were processed

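Poly(A) RNA of SW620 cells was sequenced in 3 ELAPOR1 and 3 vector libraries. The authors deposited 1 table of raw read counts per gene with FPKM values beside them, and each of the 142222 FPKM values above a count of 0 could be recomputed to within 0.01 from the count, the exonic length and the library's total. Per the submitters' processing notes, cutadapt 1.9.1 and HISAT2 2.0.1 were used with HTSeq 0.6.1, DESeq2 and the build GRCh38. No source used here says whether the counting was strand-aware. The authors' second deposited table gives log2 fold changes, p-values, a test score and the mean normalized signal of their own comparison. Columns were matched by name, K as the ELAPOR1 construct and NC as negative control.

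The counts were tested by quasi-likelihood (edgeR 4.0.16, R 4.3.3), after filterByExpr and TMM scaling, two-sided, with Benjamini-Hochberg adjustment over the 16003 genes tested. The SE was taken as the absolute log2 fold change divided by the root of F, and 95% intervals use the test's degrees of freedom. Alternatives were DESeq2 1.42.0, other scalings and filters, a replicate block, limma 3.58.1 on FPKM, a stricter threshold and each library left out. Overlaps came from GENCODE 29, which matched 36 of 36 members by identifier but only 15 by the same span. Shared bases are therefore those of GENCODE 29 and can differ from the exons that were counted. Exonic bases were shared with another gene by 18 members, not all of which are described. The procedure was tested on simulated data. Pairs of libraries of 1 group gave a mean chi-square of 2.45 to 3.50 per gene, above the 1 of sampling noise, so no library was counted as a copy. Members, lists, roles and tests were chosen with earlier results of these data known. All members are named. From other lists, up to 4 called genes of at least 1 CPM with the largest changes are named. One such gene is not reported here. Windows are those of called members off chromosome 8 with the most sites, at most 5.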

Additional observations from a re-analysis of the deposited data

How the results depend on the processing

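The count of 20 called members (19 lower) stayed within 1.5 times under each alternative except limma on log2(FPKM + 1) with no filter, which called 9, all lower; the cause was not tested. The 1 higher member became 0 with DESeq2, with all 3 limma fits and at an adjusted p under 0.01, and 0 to 3 with a library left out. Leaving out 1 library gave 16 to 22 called members, 16 to 19 of them lower, and 2723 to 3187 of all genes. The count of 3427 genes became 2133, 2098 and 1378 in the limma fits (pseudocount 1, pseudocount 0.1, and pseudocount 1 with no filter) and 2245 at an adjusted p under 0.01, the last by construction. With library sizes alone, 2183 genes were lower and 1351 higher, against 1820 and 1607, and with limma on log2(FPKM + 1) 1406 and 727, while 19 and 17 members were lower. Of 20 called members, 8 kept their call under all alternatives run, 12 lost it under at least 1 and 0 changed direction. The limma fit with no filter alone ended the calls of ADM, ANKRD37, BNIP3L, CA9, EGLN3, KDM4B and PLOD2 (adjusted p 0.0541 to 0.104). It also ended that of PPFIA4 (0.103), which the limma fits with a filter on low values did not test. FAM162A, KDM4C, P4HA2 and PLOD1 are covered beside their values. Among members not called, the direction changed with a library left out for BNIP3 (-0.29 to 0.20), EGLN2 (-0.11 to 0.069), EPAS1 (-0.72 to 0.13) and VHL (-0.0098 to 0.049). With the replicate block, 20 members and 3361 genes were called. The labels do not say whether the numbers pair the libraries. Over all genes tested, 0 of 6 libraries correlated best with its own number. Whether the numbers pair the libraries for the members alone was not tested. Low counts limit EPAS1, CA12, LOX and BNIP3, which had at most 47 counts in any library.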

Other observations

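Other genes of the pathway, from lists of textbook members, were read in the same fit. Of 40 further hypoxia targets outside glycolysis, 35 were tested, 20 fell and 4 rose by edgeR, against 11.4% and 10.0% of all genes tested, with a median log2 fold change of -0.19; DESeq2 called 16 lower, against 8.95% of genes, and 3 higher. The number that rose is near the share over all genes. TMEM45A, a transmembrane protein gene, averaged 0.995 CPM in ELAPOR1 cells and 2.72 CPM in vector cells (log2 fold change -1.46). Of the 4 that rose, HMOX1, the heme oxygenase gene, averaged 2.37 CPM in ELAPOR1 cells and 1.07 CPM in vector cells (1.14), and IGFBP3, an insulin-like growth factor binding protein gene, averaged 6.57 CPM in ELAPOR1 cells and 3.66 CPM in vector cells (0.85). The adjusted p values by edgeR were 7.90e-04 for TMEM45A, 0.0111 for HMOX1 and 4.54e-04 for IGFBP3.

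Of 18 further HIF regulators, among them ARNT, the VHL complex genes ELOB, ELOC, CUL2 and RBX1, and coactivators, 3 rose and 0 fell by edgeR. DESeq2 also called 3 higher and 0 lower. At an unadjusted p under 0.05 by edgeR, 4 were higher and 1 lower, against 15.5% and 16.3% of all genes tested. The 3 of 18 that rose are 16.7%, against 10.0% of all genes called higher and 21.4% called in either direction. With only 3 genes called, whether their share exceeds that of all genes was not tested. The coactivator gene EP300 averaged 126 CPM in ELAPOR1 cells and 105 CPM in vector cells, a log2 fold change of 0.26 at an adjusted p of 2.32e-05, and MCM7 and the chaperone gene HSP90AA1 rose by 0.21 and 0.13. ARNT, the main partner of HIF1A, had a log2 fold change of -0.16 at an adjusted p of 0.139. Of 22 glycolysis genes, 20 fell and 0 rose by edgeR, 0 also at an unadjusted p under 0.05 and by DESeq2, with a median of -0.30, and 11.4% of all genes fell; the falls were led by PFKFB4 at -1.30, ALDOC at -1.14, HK2 at -0.56 and PFKFB3 at -0.55.

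Replicate 2 was also the lowest library for most glycolysis genes that fell, 16 of 20 among ELAPOR1 libraries and 14 of 20 among vector libraries. Of the 20 further targets that fell, vector replicate 2 was the lowest vector library for 14 and the highest for 0, but ELAPOR1 replicate 2 was the lowest ELAPOR1 library for 10 and the highest for 6, with a median deviation of -0.023 on the log2 scale. Among all 1820 genes that fell, these libraries were lowest for 38.0% and 33.4% of genes. The cause was not tested.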
